A study of Mus musculus with 18 samples.

Results

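The 10 genes described here are a fixed list of cell-cycle inhibitors and p53-response genes: Cdkn1a, Cdkn1b, Cdkn2a, Cdkn2b, Cdkn2c, Cdkn2d, Trp53, Mdm2, Gadd45a and Gadd45b. They were taken by name out of the 49184 genes to which the transcripts of the study were summed, and all 10 passed the filter on low counts, among 21129 genes in the fit on 15 libraries and 21262 in the fit on 18. They were measured by RNA sequencing of femoral condyle cartilage from male C57Bl/6J mice, in which a single load of 12 N ruptured the anterior cruciate ligament (ACL) of the right knee at 12 weeks of age. The 18 libraries are 6 of naïve mice, 3 of injured right knees and 3 of contralateral left knees at day 1, and 3 of injured and 3 of contralateral knees at day 7. No genotype differs between the groups. The naïve group, labelled as the control of day 7, had no rupture, and the contralateral knee belonged to a mouse whose other knee was ruptured.

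Each library was a pool of knees. The study's scheme gives 2 mice per library at day 1, 4 at day 7 and 2 knees per naïve library from 6 naïve mice, whereas the design text of the series speaks of 4 mice in each sample. A footnote of that scheme has the knees of each side pooled apart, so some of the 6 naïve libraries may be left and right pools of the same animals. The labels do not tell which libraries share mice. The tests count all libraries as independent, so p-values measure the spread between pools. Totals of estimated counts ranged from 16074762 to 41794005 per library, with a median of 25465706. The cartilage markers were present in every group, with Col2a1, the main collagen of cartilage, at 3240 ± 886 CPM (counts per fixed library size, corrected with TMM factors; SD, n = 6) in the naïve libraries and 3800 ± 276 CPM (n = 3) in the day 7 injured libraries. The libraries also held RNA of other tissues. The summed level of 9 erythroid genes, led by Hbb-bs, was 34978 ± 3978 CPM in naïve and 22828 ± 5498 CPM in day 7 injured libraries. In bulk RNA, fewer cells of a type and less RNA per cell cannot be told apart.

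One library stood apart. In day 7 contralateral replicate 1 the 10 leading genes made up 42.5% of all counts, where each of the other 17 libraries had 16.6% to 29.8%, and its TMM scaling factor was 0.696. Its erythroid sum was 65028 CPM, against 29655 and 31805 CPM in the other libraries of its group, and its osteoblast and osteocyte sum was 53135 CPM, against 16427 and 22667 CPM. For the members, the calls that use the day 7 contralateral group are therefore given with and without it.

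The genes fall into families with distinct roles. Cdkn1a (p21) and Cdkn1b (p27) are Cip/Kip proteins, which bind cyclin-CDK complexes and hold cells before DNA replication. Cdkn2b (p15), Cdkn2c (p18), Cdkn2d (p19Ink4d) and the p16 product of Cdkn2a are INK4 proteins, which bind CDK4 and CDK6 and keep the D-type cyclins from activating them. The other product of Cdkn2a, Arf, is read from its own first exon in another reading frame and binds Mdm2, the ubiquitin ligase that keeps p53 low. Trp53 encodes p53, which is controlled largely at the level of the protein, and Cdkn1a, Mdm2 and Gadd45a are textbook targets of it. Gadd45a and Gadd45b are small stress-response proteins that bind the MAP kinase kinase kinase encoded by Map3k4 and the replication clamp Pcna. In cartilage, p21, p16 and p15 are widely used as marks of growth arrest, growth-plate maturation and senescence.

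Cdkn1a, Cdkn2b and Gadd45b are the members that rose at day 7, and their promoters are shown for that reason. The sequences are those of RefSeq for GRCm38.p6, each the 120 bases before an annotated start, 5′ to 3′ on the strand of the gene. Capitals mark matches on either strand, searched in windows from 250 bases before to 50 after each start. The motifs were the binding site of Sp1, written GGGCGG, and the site that places the start of many promoters, written TATAAA. The site of the factor NF-Y was written CCAAT, and the site of the stress-responsive factor AP-1 was written TGANTCA. The last was the consensus decamer of p53, written RRRCWWGYYY, where R is A or G, W is A or T and Y is C or T. Cdkn1a has 2 annotated starts in the table. The upstream stretch lies at chr17:29090859-29090978 (+), the downstream stretch at chr17:29093649-29093768 (+), the Cdkn2b stretch at chr4:89311033-89311152 (-) and the Gadd45b stretch at chr10:80929971-80930090 (+).
Cdkn1a, upstream start: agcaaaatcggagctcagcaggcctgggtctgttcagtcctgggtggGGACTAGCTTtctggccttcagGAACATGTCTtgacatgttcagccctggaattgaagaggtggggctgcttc
Cdkn1a, downstream start: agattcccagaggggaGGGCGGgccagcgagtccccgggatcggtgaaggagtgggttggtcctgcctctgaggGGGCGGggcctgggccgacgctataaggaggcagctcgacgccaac
Cdkn2b: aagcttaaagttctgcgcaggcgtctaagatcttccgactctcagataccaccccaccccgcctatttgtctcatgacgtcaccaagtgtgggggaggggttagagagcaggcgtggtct
Gadd45b: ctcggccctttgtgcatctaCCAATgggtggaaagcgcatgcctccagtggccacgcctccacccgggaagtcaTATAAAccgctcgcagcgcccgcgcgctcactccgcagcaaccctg
The upstream start of Cdkn1a carried 2 p53 decamers, which began 73 and 51 bases before the start, in letters that 8.36% of all 32841 promoter windows hold. The downstream start had no decamer and 2 matches to GGGCGG, found in 35.7% of all windows. The Gadd45b window had a TATAAA, 46 bases before the start, which 13.6% of windows hold, 2 CCAAT, held by 37.4%, and a GGGCGG. The GGGCGG and 1 CCAAT, 158 and 139 bases before the start, lie outside the stretch shown. The Cdkn2b stretch matched none of the motifs, and its only match in the window, a GGGCGG, lay after the start. The windows of Gadd45a, Cdkn2d, Mdm2 and Trp53, none of them called higher at day 7, held 1 p53 decamer each. No member's window matched TGANTCA, held by 7.81% of windows. A match describes letters only.

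The transcripts of Cdkn1a were nearly all from the downstream start. Over the 18 libraries, Cdkn1a-201, which starts there, held 91.1% of the estimated counts of Cdkn1a, and Cdkn1a-202, from the upstream start with the decamers, held 1.45%. By library, Cdkn1a-202 had from 0 to 29.4 estimated counts. Cdkn1a-201 was at 10.6 to 13.2 TPM (a unit of abundance per transcript length) in the day 1 injured and 8.71 to 14.01 TPM in the day 7 injured libraries, against 4.46 to 9.44 TPM in naïve libraries. The contralateral libraries had 5.43 to 8.49 TPM at day 1 and 3.20 to 9.07 TPM at day 7. The day 1 injured libraries were all above the naïve ones on this scale, and the day 7 injured ones overlapped with them. Mean TPM at day 1 after injury was above naïve for all 10 members, at 1.32 to 2.24 times. In the day 1 contralateral libraries it was also above naïve for every member except Cdkn2a. Gadd45a, for example, had a mean of 26.3 TPM there, 24.9 in day 1 injured and 17.3 in naïve libraries. For Cdkn1a in CPM of the gene the reverse of its TPM pattern held: the day 1 injured libraries overlapped with the naïve ones and the day 7 injured ones did not. Cdkn1a overlaps an antisense gene, AC167363.2. The library kit keeps strand, but whether the counting used it is not given in the sources used here, so reads of the pair may be mixed.

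Among the naïve libraries the members spanned a wide range of levels. Per length, the highest was Cdkn2d at 20.5 ± 2.76 TPM (SD, n = 6), followed by Gadd45a at 17.3 ± 2.35, Cdkn1b at 14.6 ± 1.59, Trp53 at 14.4 ± 2.10, Cdkn2c at 13.6 ± 1.64 and Mdm2 at 11.4 ± 1.80 TPM. The ranges of each of these neighbours overlapped. Cdkn1a followed at 7.45 ± 1.80 TPM, and its range, 5.43 to 10.4 TPM, overlapped with that of Mdm2 above it and of Gadd45b below it, at 5.02 ± 0.966 TPM. Far below stood Cdkn2b at 0.256 ± 0.0583 TPM and Cdkn2a at 0.178 ± 0.109 TPM, whose ranges overlapped with each other and with no other member. At day 7 after injury Cdkn1a was at 12.0 ± 2.67 TPM, between Trp53 at 12.3 ± 1.77 and Cdkn1b at 11.7 ± 1.22 TPM, and these 3 overlapped. TPM holds no correction for a few abundant genes, so it serves here to order genes within a group, and TPM values of different groups stand side by side without a test.

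Over the 18 libraries, p53 itself, its ligase and p27 varied least. The coefficient of variation of CPM was 7.61% for Cdkn1b, 8.09% for Mdm2 and 9.66% for Trp53. It was 34.6% for Cdkn1a, 32.1% for Gadd45b, 33.2% for Cdkn2d, 75.7% for Cdkn2b and 81.4% for Cdkn2a, which rests on 0 to 16 counts per library. Without day 7 contralateral replicate 1, Cdkn2d came to 16.3% and Cdkn2c went from 17.8% to 9.34%, while Cdkn1a stayed at 35.7% and Cdkn2b at 77.5%.

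**Figure D1:**
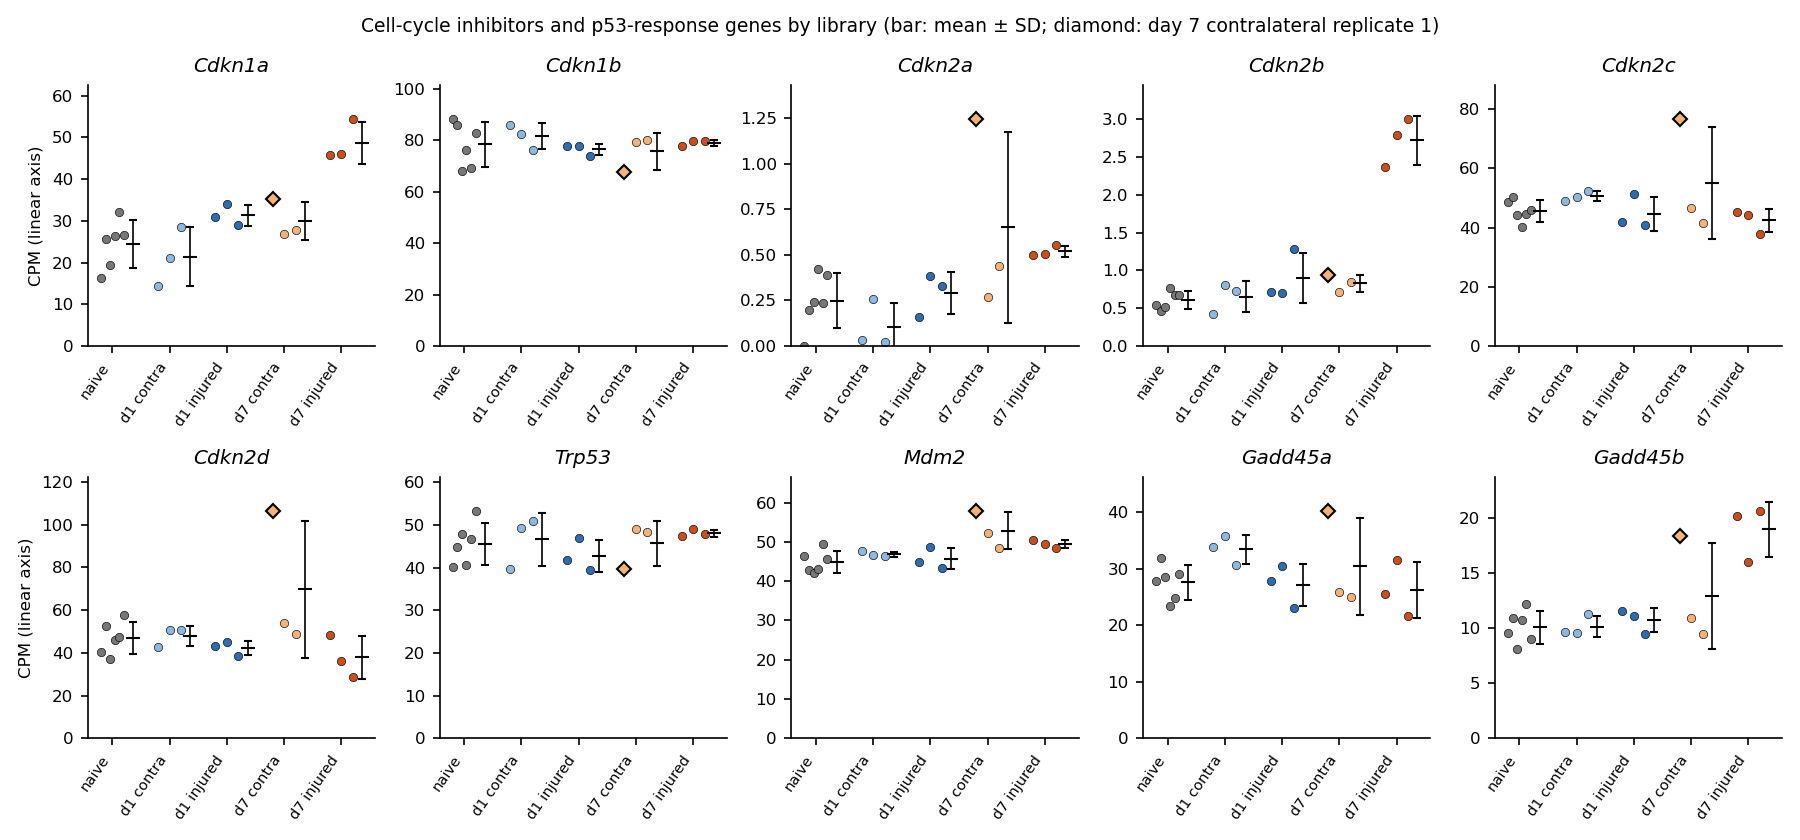
Level of each gene in CPM on a linear axis, with 1 point per library, by group, and the mean ± SD beside each group (n = 6 naïve, 3 in each other group). The 3 day 7 injured libraries lie above all others for Cdkn1a and Cdkn2b, and the diamond, day 7 contralateral replicate 1, is the highest library for Cdkn2a, Cdkn2c, Cdkn2d, Mdm2 and Gadd45a. Per plain library total, without TMM factors, the day 7 and day 1 injured libraries overlapped for Cdkn1a.

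The first comparison asks how injured cartilage differed from that of naïve mice 7 days after rupture. Cdkn2b, Cdkn1a and Gadd45b rose, and no member was called lower with TMM scaling. A gene was called where its false discovery rate (FDR, over all genes tested) in edgeR's quasi-likelihood test was 0.05 or lower and the groups differed 1.5-fold or more. By this rule 3 of 10 members were called higher, against 10.4% of all genes called higher, 6.11% lower and 16.6% in either direction. The split over all genes turned with the scaling: by library totals 6% were called higher and 21.6% lower, and with upper-quartile scaling 7.61% and 13%. With 10 members this share is a description and is not set against chance.

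Cdkn2b, the INK4 inhibitor p15, rose furthest. It was at 0.464 to 0.770 CPM with a median of 0.610 in the 6 naïve libraries, and at 2.36, 2.79 and 3.01 CPM in the day 7 injured libraries. The groups did not overlap, and every day 7 injured library was above every library of the other 4 groups. The change was 4.43-fold, or 2.15 on the log2 scale (SE 0.238), with an adjusted p of 7.37e-06 by edgeR. It stayed a scarce transcript, with 7 to 22 estimated counts in the naïve libraries and 44 to 65 in the day 7 injured ones.

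Cdkn1a, the p21 inhibitor that acts downstream of p53, had 16.3 to 32.2 CPM in the naïve libraries, with a median of 26.0, and 45.7, 45.9 and 54.5 CPM in the day 7 injured libraries. Here too every day 7 injured library was above all other libraries. The change was 2.02-fold, or 1.01 on the log2 scale (SE 0.199, edgeR adjusted p = 0.00135). Gadd45b, the stress-response partner of Map3k4, had 8.08 to 12.2 CPM in the naïve libraries, with a median of 10.2, and 20.2, 16.03 and 20.6 CPM in the day 7 injured libraries. The groups did not overlap in CPM, and the change was 1.90-fold (log2 0.93, SE 0.129, edgeR adjusted p = 6.71e-05). Per plain library total, without the TMM factors, they overlapped. They also overlapped in TPM, at 4.25 to 6.71 in naïve and 6.42 to 9.44 in day 7 injured libraries. Each of the 3 genes kept its call in all 24 alternatives run for it.

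Cdkn2a was higher in CPM in all 3 day 7 injured libraries than in any naïve one, and was not called. Per plain library total, without the TMM factors, the groups overlapped. It had 11, 8 and 12 estimated counts there, against 0 to 12 in the naïve libraries, which overlap, or 0.500 to 0.555 CPM against 0 to 0.420 CPM. Its log2 difference of 1.01 had an SE of 0.593 and an edgeR adjusted p of 0.216, with a 95% interval from -0.26 to 2.27. Groups that do not overlap, with the injured side higher, were found in CPM for 4 of 10 members, Cdkn2a among them, and for 17.4% of all genes, with 10.8% lower and 28.2% in either direction. The p16 form of Cdkn2a had 0, 5.51 and 12.0 estimated counts in the 3 day 7 injured libraries and the Arf form had 11, 2.49 and 0, so the split between the forms differed from library to library and no form was measurable on its own at this depth. Of 139 counts over all libraries, 31.7% were given to the p16 form and 68.3% to the Arf form.

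The remaining members did not pass the test against naïve libraries. Trp53 was at 45.5 ± 4.97 CPM in the naïve and 48.1 ± 0.813 CPM in the day 7 injured libraries, a log2 difference of 0.10 with a 95% interval from -0.12 to 0.31 (edgeR adjusted p = 0.502). Mdm2, both the ligase of p53 and its target, was at 44.9 ± 2.79 and 49.5 ± 1.01 CPM, with a log2 difference of 0.16, an interval from 0.02 to 0.30 and an adjusted p of 0.0835 by edgeR. Cdkn1b was at 78.5 ± 8.66 and 79.0 ± 1.13 CPM, and its interval ran from -0.15 to 0.20. These intervals reach neither a 1.5-fold rise nor a 1.5-fold fall, but they are relative to the scaling. When libraries were scaled by their total alone, Trp53, Mdm2 and Cdkn1b took log2 differences of -0.22, -0.16 and -0.29, while the median of all genes moved from -0.04 to -0.35. Cdkn2c (log2 -0.09), Cdkn2d (log2 -0.29) and Gadd45a (log2 -0.06) overlapped between the groups in CPM. Of these, Cdkn2d was called lower when scaled by library totals (log2 -0.61, edgeR adjusted p = 0.00569).

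**Figure D2:**
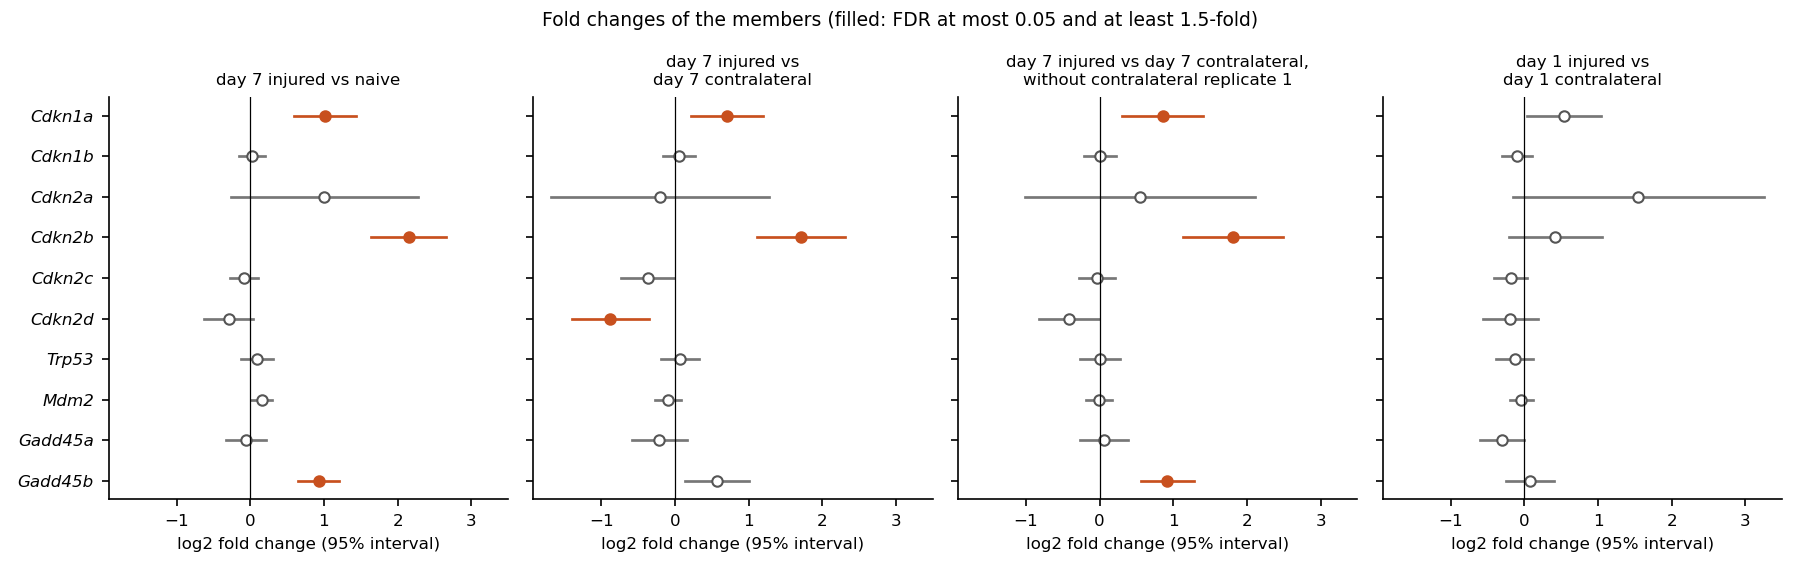
Log2 difference of each gene on the horizontal axis, with its 95% interval from edgeR, in 4 panels: day 7 injured against naïve, day 7 injured against day 7 contralateral with and without contralateral replicate 1, and day 1 injured against day 1 contralateral. Filled points pass an FDR of 0.05 and a 1.5-fold change. Cdkn2b and Cdkn1a are filled in the first 3 panels, Cdkn2d only with replicate 1 and, in these contralateral panels, Gadd45b only without it.

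The second comparison sets the injured knee at day 7 against the contralateral knee of the same day. Cdkn2b and Cdkn1a were higher and Cdkn2d was lower, so 2 of 10 members were called higher and 1 lower, against 9.33% and 3.23% of all genes and 12.6% in either direction. The same 3 were the members whose groups did not overlap, where 18.6% of all genes were higher without overlap, 14.3% lower and 33.0% either. Cdkn2b had 0.935, 0.713 and 0.845 CPM in the contralateral libraries and was 3.29-fold higher in the injured ones (log2 1.72, SE 0.283, edgeR adjusted p = 3.06e-04). Cdkn1a had 35.1, 26.7 and 27.9 CPM, all below the injured libraries, and was 1.63-fold higher (log2 0.71, SE 0.230, edgeR adjusted p = 0.0401). The call of Cdkn1a was lost in 11 of 27 alternatives, with adjusted p-values up to 0.163. Among them were scaling by library totals (0.0832), an offset for transcript length (0.0618), and leaving out any 1 of the injured libraries or either of the other contralateral libraries.

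The calls of Cdkn2d and Gadd45b changed without replicate 1 of the contralateral group, and under other settings as well. Cdkn2d, the INK4 inhibitor p19Ink4d, had 106, 53.9 and 48.7 CPM in the contralateral libraries and 48.5, 36.3 and 28.7 CPM in the injured ones. The groups just missed each other, and its log2 difference was -0.87 (SE 0.246, edgeR adjusted p = 0.0187). Without contralateral replicate 1 the difference was -0.41 and the adjusted p 0.161. The call was also lost without day 7 injured replicate 2 (0.0673) or 3 (0.113) and with only these 2 groups in the fit (0.139), at log2 differences of -0.84, -0.72 and -0.88. Gadd45b had 18.4, 10.9 and 9.50 CPM in the contralateral libraries and was not called with all of them (log2 0.57, SE 0.205, edgeR adjusted p = 0.0637), but was called by limma-voom (0.0188) and with the length offset (0.0487). Without replicate 1 it was 1.89-fold higher (log2 0.92, SE 0.172, edgeR adjusted p = 0.00122). Without that library 3 members were thus called higher and none lower, where 9.31% of all genes were called higher, 1.99% lower and 11.3% in either direction, and Cdkn1a (log2 0.86, adjusted p = 0.0320) and Cdkn2b (log2 1.81, adjusted p = 7.37e-04) were still among them. Erythroid genes stood highest in the same library, as given above, and their part in the level of Cdkn2d was not tested.

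Against the contralateral knee, Trp53 differed by 0.07 on the log2 scale, with an interval from -0.19 to 0.33, and Mdm2 by -0.09, with an interval from -0.27 to 0.09. Without contralateral replicate 1 the differences were 0.0044 and -0.0020. Cdkn1b, Cdkn2a, Cdkn2c and Gadd45a were not called either, and without that library Cdkn2a went from -0.20 to 0.55 and Gadd45a from -0.21 to 0.06. Cdkn2c had 76.8 CPM in contralateral replicate 1 and 46.7 and 41.6 CPM in the others, and its log2 difference went from -0.37 to -0.03 without that library.

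At day 1 no member was called, nor was any gene, against either control. In the injured libraries against naïve ones, 0% of 21129 genes passed edgeR's test and 4.54% had an unadjusted p under 0.05, while DESeq2 called 15 genes, none of them a member. Against the contralateral knee edgeR again called 0%, 6.55% of genes had an unadjusted p under 0.05, and the lowest adjusted p of any gene was 0.755. Cdkn1a was nearest to a difference. It had 30.9, 34.0 and 29.1 CPM in the day 1 injured libraries, and 14.5, 21.1 and 28.6 CPM in the day 1 contralateral ones, so that the groups did not overlap. The log2 difference was 0.54 (SE 0.236), with an interval from 0.04 to 1.05, an unadjusted p of 0.0363 and an adjusted p of 0.755 by edgeR. In the same comparison 5.09% of all genes were higher without overlap, 6.07% lower and 11.2% either, and 1 of 10 members was higher and 1 lower. Gadd45a did not overlap in the other direction, with 27.9, 30.4 and 23.0 CPM in the injured and 33.8, 35.7 and 30.7 CPM in the contralateral libraries (log2 -0.30, SE 0.143, edgeR adjusted p = 0.755).

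Between day 1 and day 7 the injured libraries themselves differed in 2 of the 10 members with TMM scaling, both higher at day 7, where 9.04% of all genes were called higher, 6.38% lower and 15.4% in either direction. Cdkn2b had 0.711, 0.699 and 1.28 CPM at day 1 and was 3.09-fold higher at day 7 (log2 1.63, SE 0.278, edgeR adjusted p = 7.09e-04). Gadd45b had 11.5, 11.1 and 9.45 CPM at day 1 and was 1.79-fold higher (log2 0.84, SE 0.153, edgeR adjusted p = 0.00116). With libraries scaled by their totals its difference was 0.40, with an adjusted p of 0.0539. Cdkn1a was 1.57-fold higher at day 7, and in CPM all day 7 libraries were above all day 1 libraries, but its adjusted p was 0.0553 by edgeR, 0.0369 by DESeq2 and 0.0488 by limma-voom. With libraries scaled by their totals its log2 difference was 0.21, with an adjusted p of 0.465, in place of 0.65. Under the same scaling Cdkn2d was called lower at day 7 (log2 -0.59, edgeR adjusted p = 0.0123, against -0.14 and 0.596 with TMM), so that 1 member, Cdkn2b, was called higher and 1 lower, beside 3.75% and 28.6% of all genes. In CPM with the TMM factors, day 7 libraries were higher than day 1 libraries without overlap for 5 of 10 members (Cdkn1a, Cdkn2a, Cdkn2b, Trp53 and Gadd45b). The same held for 22.8% of all genes, with 17.5% lower and 40.3% either. This count depends on the scaling. For Trp53 the log2 difference was 0.19 with TMM, -0.26 with library totals and -0.003 with upper-quartile scaling, none of them called.

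The rise at day 7 was also tested as the difference between the injury effect at day 7 and at day 1, each taken against its contralateral knee. No member passed, against 3.77% of all genes in edgeR (3.53% higher and 0.245% lower), and 1 of 10 members had an unadjusted p under 0.05, as did 16.3% of genes. That was Cdkn2b, whose log2 difference between the effects was 1.29 (SE 0.403), with an interval from 0.44 to 2.14 and an adjusted p of 0.0896. It came to 1.502 with an adjusted p of 0.0477 without day 1 contralateral replicate 1, and to 1.62 with 0.0303 without day 1 injured replicate 3. Gadd45b had a difference of 0.49 (adjusted p = 0.433) with all libraries, and 0.85 (adjusted p = 0.0410) without day 7 contralateral replicate 1, where 4.41% of all genes were called, 4.09% higher and 0.321% lower. For Cdkn1a the difference was 0.16 with an interval from -0.52 to 0.84, so these data do not show that its injury effect at day 7 exceeded that at day 1.

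The contralateral knees gave no call against naïve libraries at either day, with 0% of all genes called by edgeR in both. DESeq2 called 2 genes at day 1 and 31 at day 7, no member among them. At day 1, 2.62% of genes had an unadjusted p under 0.05, among them Gadd45a (log2 0.28, unadjusted p = 0.0366), and at day 7 it was 15.1%. At day 7, Cdkn2d (log2 0.57, unadjusted p = 0.0141) and Mdm2 (log2 0.23, unadjusted p = 0.00527) were the members under that limit, with adjusted p-values of 0.257 and 0.248. Without contralateral replicate 1 the log2 difference of Cdkn2d was 0.13 and that of Mdm2 was 0.16.

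The family members that are not in the list of 10 included 1 more gene that rose. Cdkn1c (p57), the remaining Cip/Kip inhibitor, which is imprinted and known from hypertrophic chondrocytes, had 10.1 ± 2.12 CPM in naïve libraries and 30.5 ± 3.34 CPM at day 7 after injury (log2 1.61, SE 0.216, edgeR adjusted p = 4.81e-05). It was also called against the day 7 contralateral (log2 1.36) and day 1 injured libraries (log2 1.80). Without contralateral replicate 1 Cdkn1c kept its call against the contralateral libraries. Its injury effect at day 7 was then also called higher than that at day 1. With all libraries that difference was not called (log2 1.36, edgeR adjusted p = 0.0881). Mdm4, Gadd45g and Trp63 were not called against naïve libraries, with log2 differences of -0.28, 0.63 and -0.56, but Mdm4 and Trp63 were called lower when scaled by library totals, as 21.6% of all genes were. Trp63 was called lower at day 7 against day 1 injured libraries (log2 -0.99, edgeR adjusted p = 0.0421). Trp73 did not pass the filter on low counts.

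The genes around p53 were examined in 2 lists. None of 18 regulators of p53, among them the kinases that act on it after DNA damage, was called at day 7 against naïve libraries (1 was lower with library totals), and their median log2 difference was -0.08, beside -0.04 over all genes. Of 40 genes known as p53 targets, 7 were called higher and 1 lower, with a median of 0.14, where 10.4% of all genes were called higher and 6.11% lower. Igfbp3, which binds insulin-like growth factors, was furthest up, from 15.7 ± 2.77 to 74.3 ± 8.64 CPM (log2 2.26, SE 0.174, edgeR adjusted p = 2.17e-07). Zmat3, an RNA-binding protein, went from 18.1 ± 1.98 to 38.3 ± 4.09 CPM (log2 1.10, edgeR adjusted p = 3.88e-06), and the kinase Plk3 from 3.64 ± 1.36 to 6.67 ± 2.24 CPM (log2 0.90, edgeR adjusted p = 0.0454). Perp, a membrane protein of cell adhesion, was the one that fell, from 2.49 ± 0.483 to 1.58 ± 0.290 CPM (log2 -0.64, edgeR adjusted p = 0.0293). The textbook targets Bax (log2 0.45), Ccng1 (log2 -0.20) and Phlda3 (log2 0.12), named after their values were seen, were not called.

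Against naïve libraries, the calls in the p53 target list changed with the scaling. With libraries scaled by their totals, 2 of the 40 targets, Zmat3 and Igfbp3, were called higher and 5 lower, with a median of -0.17 where that of all genes was -0.35 and 6% of all genes were called higher and 21.6% lower. With upper-quartile scaling 4 were higher and 2 lower, beside 7.61% and 13% of all genes. Against the day 7 contralateral libraries 8 targets were called higher and none lower, where 9.33% and 3.23% of all genes were. Their median was -0.08, beside -0.05 over all genes, and 19 of the 40 lay above 0. Without contralateral replicate 1, 6 were called higher, beside 9.31% of all genes, and the median was 0.13. Scaled by library totals with all libraries, 6 targets were higher and 3 lower, beside 6.75% and 6.14% of all genes. At day 1 none was called. Zmat3 was higher at day 7 against contralateral libraries as well (log2 1.10, edgeR adjusted p = 3.18e-05), and its injury effect at day 7 exceeded that at day 1 (log2 0.85, edgeR adjusted p = 0.0225). Zmat3 was called in both comparisons without contralateral replicate 1 too.

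**Figure D3:**
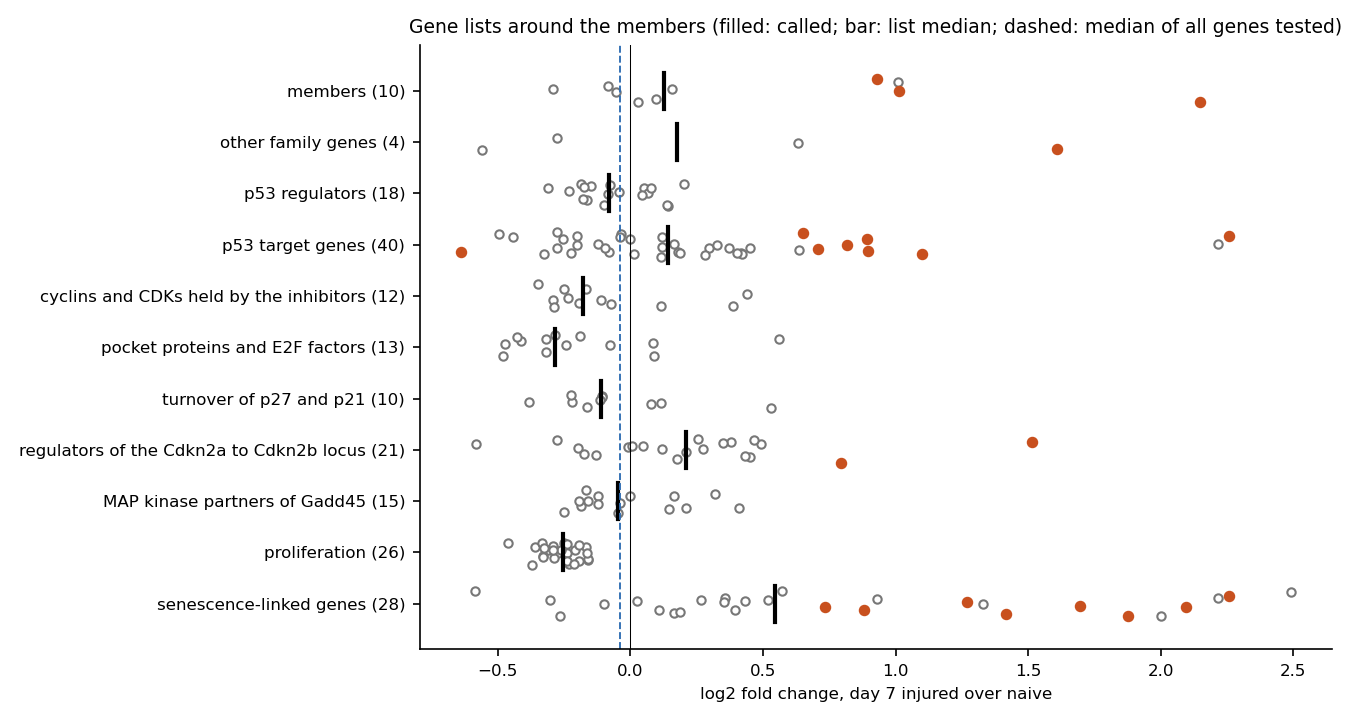
Log2 difference, day 7 injured minus naïve, of the genes of each list, with 1 point per gene, filled where called, a bar at the list's median and a dashed line at the median of all genes tested (-0.04). The number of genes tested is beside each name and vertical spread is for legibility. All 26 proliferation genes lie below 0. Of 40 p53 targets 7 were called higher and 1 lower, and of 28 senescence-linked genes 8 were higher, with Igfbp3 in both lists. Of the other lists, 3 of 10 members, 1 of 4 other family genes and 2 of 21 regulators of the Cdkn2a to Cdkn2b locus were higher. Over all genes 10.4% were called higher and 6.11% lower.

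The calls among the targets of the inhibitors depended on the scaling. Against naïve libraries, of 12 cyclins and CDKs none was called, with a median of -0.18, although 2 passed the FDR alone, and 3 were called lower with libraries scaled by their totals, where 21.6% of all genes were. Cdk4, the kinase bound by p15 and p16, was at 75.3 ± 9.33 CPM in naïve and 97.2 ± 8.92 CPM in day 7 injured libraries (log2 0.39, edgeR adjusted p = 0.0197), below the 1.5-fold limit. Of 13 pocket proteins and E2F factors none was called and 7 passed the FDR alone, while 7 were called lower with library totals and 4 with upper-quartile scaling, beside 21.6% and 13% of all genes. Among them was Rb1, which the CDKs phosphorylate, with a log2 difference of -0.48 (edgeR adjusted p = 2.98e-04). None of 10 genes for the turnover of p27 and p21 and none of 15 MAP kinase partners of Gadd45 was called, and with library totals 1 of the former was lower. Cdk4 and Rb1 are named after their values were seen.

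None of the 26 genes of the proliferation list was called at day 7 against naïve libraries, 11 passed the FDR alone, and none lay above 0, with a median of -0.26. In day 1 injured libraries none lay above 0 either, with medians of -0.17 against naïve and -0.24 against contralateral libraries. None passed the FDR there. Between day 7 and day 1 injured libraries none passed the FDR, 5 lay above 0 and the median was -0.12. Mki67, the common marker of cycling cells, also named after its values were seen, was at 1518 ± 139 CPM in naïve and 1087 ± 166 CPM in day 7 injured libraries (log2 -0.46, edgeR adjusted p = 0.00708). Of the erythroid genes, 6 of 9 were called lower in the same comparison, and of 11 neutrophil and marrow myeloid genes 2 were, with none higher. Over all genes 6.11% were called lower. The part of these cells in the proliferation list was not tested. With libraries scaled by their totals, 12 of the 26 were called lower, with a median of -0.57, where 21.6% of all genes were called lower and their median was -0.35. Against the day 7 contralateral libraries Mcm5 and Birc5 were called lower, where 3.23% of all genes were. Without contralateral replicate 1 none of the list was called lower, where 1.99% of all genes were. With library totals 13 were, where 6.14% of all genes were called lower.

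Of 21 regulators of the Cdkn2a to Cdkn2b locus, 2 were called higher and none lower at day 7 against naïve libraries, a share near the 10.4% of all genes called higher. Scaled by library totals, Twist1 alone was higher and 2 were lower, beside 6% and 21.6% of all genes, and with upper-quartile scaling 2 were higher and 1 lower, beside 7.61% and 13%. Twist1, a transcription factor of mesenchymal cells known to repress this locus, went from 6.34 ± 1.06 to 17.9 ± 2.39 CPM (log2 1.51, SE 0.142, edgeR adjusted p = 1.47e-06). Pcgf2, a Polycomb subunit, went from 4.12 ± 0.799 to 7.01 ± 1.24 CPM (log2 0.80, edgeR adjusted p = 0.00146). Twist1 and Pcgf2 were called against the day 7 contralateral libraries too, where Cbx7, another Polycomb subunit, was called lower (log2 -0.68, edgeR adjusted p = 0.0233). In that comparison 9.33% of all genes were called higher and 3.23% lower. Without contralateral replicate 1 Pcgf2 and Twist1 were the 2 called, beside 9.31% of all genes higher and 1.99% lower.

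Of 28 senescence-linked genes 8 were called higher and none lower against naïve libraries, with a median of 0.54, where 10.4% of all genes were called higher and 6.11% lower. Scaled by library totals, 6 were higher and 1 lower, beside 6% and 21.6% of all genes. The 8 were the insulin-like growth factor binding proteins Igfbp2, Igfbp3, Igfbp4 and Igfbp7, the genes of proteolysis Timp2, Plat and Mmp13, and the lysosomal enzyme Glb1. Beside Igfbp3, which is also in the p53 target list, Timp2, an inhibitor of metalloproteinases, went from 235 ± 44.1 to 989 ± 247 CPM (log2 2.09, edgeR adjusted p = 1.20e-06), and Igfbp7 from 90.3 ± 17.8 to 328 ± 42.01 CPM (log2 1.88, edgeR adjusted p = 5.92e-07). Il6, a secreted cytokine of the list, named after its values were seen, had a log2 difference of 0.02 with an SE of 1.01. Against the day 7 contralateral libraries 8 of the 28 were called higher and 1 lower, beside 9.33% and 3.23% of all genes. Without contralateral replicate 1, 6 were higher and none lower, beside 9.31% and 1.99%, and Mmp13 was not among the 6. Mmp13 was at 275 ± 97.5 CPM in naïve, 462 ± 65.3 in day 7 contralateral and 501 ± 10.4 CPM in day 7 injured libraries. The list was compiled from general knowledge of senescent cells, and several of its genes are also expressed by fibroblasts. No direction was assigned to its genes, so the counts and the median describe the list and are no measure of senescence.

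Markers of some other cell types differed in the same comparison. The summed level of 10 fibroblast and synovium genes, led by Col3a1, was 2163 ± 651 CPM in naïve and 23536 ± 1479 CPM in day 7 injured libraries, and 6 of the 10 were called higher. Col3a1 alone went from 1825 ± 615 to 22659 ± 1426 CPM, and Pdgfra, a defining fibroblast receptor, from 101 ± 13.3 to 249 ± 41.7 CPM. The osteoblast and osteocyte sum, nearly all Col1a1, went from 13190 to 51769 CPM, with 2 of 10 genes higher and 2 lower. Of 15 chondrocyte genes 4 were higher and 1 lower, of 8 endothelial genes 4 were higher, and of 7 adipocyte genes 4 were lower. Over all genes 10.4% were called higher and 6.11% lower. Of 7 hypertrophic chondrocyte genes 2 were higher, and of 8 osteoclast genes 1 was. Of 8 B cell genes 1 was lower, as was 1 of 10 skeletal muscle genes. No macrophage or T cell gene of the lists was called. No marker list had a gene at 0 in all libraries. The part of these tissues in the rise of Cdkn2b, Cdkn1a, Gadd45b or Cdkn1c was not tested.

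Over the 18 libraries, the members that rose varied together. The Pearson correlation of log2(CPM + 0.5) was 0.82 between Cdkn1a and Cdkn2b, 0.82 between Cdkn1a and Gadd45b and 0.78 between Cdkn2b and Gadd45b. These values share the libraries, the scaling and the day 7 injured group, and are a description. Cdkn1a had a correlation of 0.30 with Trp53 and 0.40 with Mdm2. Cdkn2c and Cdkn2d had 0.83, which came to 0.54 without day 7 contralateral replicate 1, whereas Cdkn2c and Gadd45a had 0.83 and 0.80.

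Of 15993 genes with a mean of at least 1 CPM, the 2 most like each member were taken by this correlation. For Cdkn2b they were Mmp11 (0.97) and Kremen1 (0.96), for Cdkn1a Adamts4 (0.94) and Mdfic (0.94), and for Gadd45b Ykt6 (0.95). Values without day 7 contralateral replicate 1 were within 0.03 of these. For Cdkn2d they were Unc119 (0.96) and S1pr4 (0.96), and for Cdkn2c Pheta2 (0.95) and Dnajb2 (0.95), and these came to 0.84 to 0.91 without that library. The members that varied little had Ifi30 and Rplp0 (Trp53), Cwc25 and Mrpl24 (Mdm2), Thoc7 and Esco1 (Cdkn1b) and Syf2 and Mrps9 (Gadd45a), at 0.83 to 0.90 over all 18 libraries and 0.75 to 0.89 without that library. For Cdkn2a, at 16 counts or fewer, they were Fam118a (0.89) and Gm15801 (0.86), which came to 0.80 and 0.75 without it.

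Part of the signal of Gadd45a and Mdm2 lay in transcripts without a coding annotation, mainly retained introns. For Gadd45a these held 38.6% ± 8.50 of the TPM in naïve libraries, 44.5% ± 11.6 in day 1 injured and 24.6% ± 12.8 in day 7 injured libraries, with ranges of 27.9% to 47.1%, 31.1% to 51.9% and 12.5% to 37.9% that overlapped. Gadd45a-201, the main coding transcript, was at 9.39 ± 0.852 TPM in naïve and 8.41 ± 2.02 TPM in day 7 injured libraries. For Mdm2 the share was 45.3% ± 3.06 in naïve and 41.0% ± 2.72 in day 7 injured libraries, and the ranges again overlapped. Gadd45a overlaps the antisense gene E230016M11Rik, and the same limit on strand holds as for Cdkn1a. Gadd45b was read mainly as Gadd45b-201, with 93.8% of its counts, and Cdkn2b has 1 annotated transcript.

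**Figure D4:**
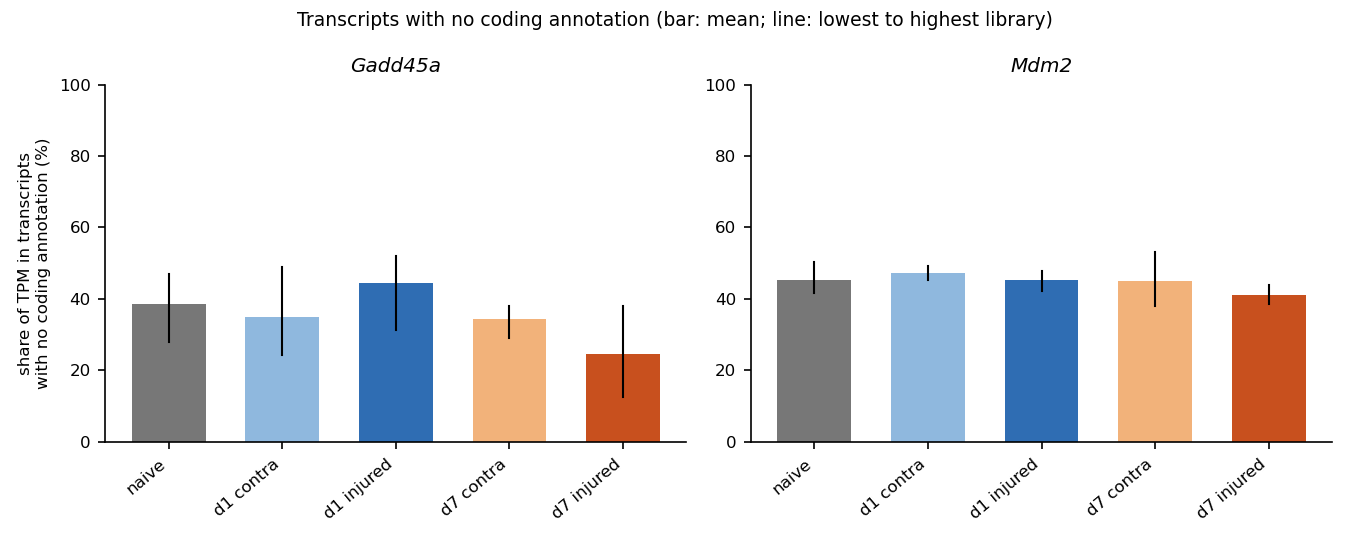
Share of the TPM of Gadd45a and of Mdm2 in transcripts with no coding annotation, in percent, as the mean of each group with a line from its lowest to its highest library (n = 6 naïve, 3 in each other group). For Gadd45a the mean is lowest, 24.6%, at day 7 after injury, and the lines of all groups overlap.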

How the data were processed

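RNA of 18 pools was sequenced in 5 groups, which were taken from the labels. The authors trimmed reads with Trimmomatic 0.39 and pseudo-aligned them with kallisto 0.46.1 to the mouse transcriptome of Ensembl release 103, per the study's methods, whereas the submitters' processing notes name the human build GRCh38, which the mouse transcript identifiers contradict. The deposited values are estimated counts per transcript, not normalized, TPM, which the authors' tool scales by length and library, and effective lengths. The study dropped 1 ACL library without naming it.

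Transcripts were matched by identifier to GENCODE vM21 (GRCm38), which gave a gene to 135107 of 137436 (98.3%). The others held 0.667% to 3.90% of the counts of a library and were left out. Estimated counts were summed per gene and rounded, and CPM values use TMM factors over 18 libraries. The main test was edgeR 4.0.16 (R 4.3.3) with TMM, its filter on low counts (minimum count 10), a mean per group and Benjamini-Hochberg adjustment, fitted on 15 libraries where the day 7 contralateral group was not compared and on 18 where it was. The limits of a call were an FDR of 0.05 and a 1.5-fold change, in either direction. DESeq2 1.42.0 and limma-voom (limma 3.58.1), other scalings, filters and limits, an offset for transcript length, and each library left out were alternatives. The script was tested on simulated data. Intervals cover 95%. No libraries held identical values, and those of one group correlated at 0.965 to 0.993 (Pearson). The depth leaves 3 counts as the floor of a library, and such limits cover counting error only.

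The members, the lists and the tests were chosen with earlier results of these data known. Genes named are all members, up to 3 called genes furthest up and down in each list at day 7 against naïve libraries, the 2 most alike per member (1 of them, for Gadd45b, is not reported here), and genes named in the text as chosen after their values were seen. The Mcm5, Birc5, Cbx7, Mdm4, Gadd45g, Trp63 and Trp73 values and the markers Col2a1, Col3a1, Pdgfra and Col1a1 are further ones, as are the other called genes of the senescence list. Skp1 and Ahsp were not matched by symbol. Promoter windows of all 10 members were matched by symbol in the RefSeq table.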

Additional observations from a re-analysis of the deposited data

How the results depend on the processing

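The 3 members called at day 7 against naïve libraries, Cdkn1a, Cdkn2b and Gadd45b, were called under every alternative run for them, and scaling by library totals, chosen after seeing the data, added Cdkn2d as lower (log2 -0.61, edgeR adjusted p = 0.00569). Against the day 7 contralateral libraries 3 members were called, 1 at an FDR of 0.01, and 1 to 3 with a library left out, the lowest without day 7 injured replicate 2 or 3. The call of Cdkn2d there was also lost without these (edgeR adjusted p = 0.0673 and 0.113) and with only the 2 groups in the fit (0.139). Its log2 differences were then -0.84, -0.72 and -0.88, against -0.87 with all libraries and groups. Gadd45b was called by limma-voom (0.0188) and with the length offset (0.0487). For the difference between the injury effects 0 members were called, and 0 to 1 with a library left out. No called value changed direction. Over all member differences and alternatives 29 moved without a call, 14 gained a call and 16 lost one, and the cause was not tested. Genes called against naïve libraries at day 7 numbered 3498, and 6291 without the fold limit or 5824 with library totals alone. Between the days 3257 genes were called, and 5160 without the fold limit, 6835 with library totals and 1895 at an FDR of 0.01. For the injury effects it was 802, and 344 at an FDR of 0.01, 346 with library totals, and 402, 465 and 496 without day 7 injured replicate 3, day 1 contralateral replicate 3 and day 1 injured replicate 1. With library totals or upper-quartile scaling Cdkn1b, Trp53 and Mdm2 changed sign, uncalled, against naïve libraries at day 7. Mean TPM at day 1 after injury was 1.32 to 2.24 times naïve for all 10 members. The day 1 contralateral mean was also above naïve for every member except Cdkn2a, and no test was run on TPM. Cdkn2a (0 to 16 counts) and Cdkn2b (7 to 65) are limited by depth. No paired analysis was possible because the labels do not tell which libraries share mice. The study, per its methods, modelled the shared mouse pools as a correlation between libraries, and that fit was not run here.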
